A study of Mus musculus with 8 samples.

Results

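Long noncoding RNAs were followed through 8 bulk RNA-seq libraries of chronic stroke infarcts. The RNAs were *AI504432*, which was selected on its tight difference in level between the groups of these same libraries, and a list of named noncoding genes, *Neat1*, *Malat1*, *Gas5*, *Snhg11*, *Miat*, *Pantr1* and *Rmst*. Of these 8 genes, 7 had a row among the 46078 genes counted, and 6 passed the filter on low counts that left 14736 genes for testing. *Pantr1* had a row but failed the filter, so it was described and not tested. The identifier of *Rmst*, ENSMUSG00000112117, was not matched in the counts and *Rmst* was not analysed here.

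All 8 samples came from wild type C57BL/6J mice, an inbred laboratory strain, aged 18 months, and all mice had undergone DH stroke, in which closure of a distal middle cerebral artery is followed by a period of low oxygen. Of the samples, 4 were from vehicle-treated and 4 from HPβCD-treated mice. Vehicle was PBS, and HPβCD (HPBCD, 2-hydroxypropyl-β-cyclodextrin, a sugar ring that carries cholesterol and other lipids) was given at 4 g/kg. Both were injected subcutaneously 3 times a week for 6 weeks, starting 1 week after stroke, and the infarcts were taken at 7 weeks. There was no uninjured group. Dissection was by hand and guided by sight, and how much adjoining brain each piece held is not known.

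Long noncoding RNAs are transcribed and often spliced and polyadenylated like messenger RNAs but carry no long reading frame, and many are held in the nucleus. *Neat1* builds paraspeckles, nuclear bodies that hold back RNAs and proteins, and *Malat1* lies in nuclear speckles, where splicing factors are stored. *Gas5* and *Snhg11* host small nucleolar RNAs in their introns, and *Miat*, *Pantr1* and *Rmst* are best known from neurons and their progenitors.

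Because the libraries were made from polyadenylated RNA, the ends of the transcripts bear on what was captured. The last 100 bases of *AI504432* and of the nuclear body RNAs are given as DNA letters from the GENCODE M21 transcripts on GRCm38, with the polyadenylation signal AATAAA in capitals. They come from chr3:107054248-107054347, plus strand, for *AI504432*, and from the minus strand at chr19:5842307-5842406 for the short *Neat1* transcript, chr19:5824708-5824807 for the long one and chr19:5795690-5795789 for *Malat1*.
AI504432-201: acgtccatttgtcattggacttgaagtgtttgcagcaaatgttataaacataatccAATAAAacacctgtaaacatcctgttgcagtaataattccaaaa
Neat1-202: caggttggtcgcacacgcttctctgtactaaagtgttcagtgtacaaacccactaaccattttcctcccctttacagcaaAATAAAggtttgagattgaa
Neat1-201: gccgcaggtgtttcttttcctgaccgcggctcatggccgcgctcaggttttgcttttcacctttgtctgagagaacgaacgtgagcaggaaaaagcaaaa
Malat1-201: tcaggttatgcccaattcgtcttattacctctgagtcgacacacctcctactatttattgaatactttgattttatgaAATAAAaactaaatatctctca
The signal began 44 bases before the end of *AI504432*, 20 before the end of the short *Neat1* transcript and 22 before the end of the annotated *Malat1* transcript. The 20771-base *Neat1* transcript had none in these bases. It is background knowledge that this long form, the one that forms paraspeckles, is cut at its end by RNase P and is not polyadenylated in the usual way. Only the transcript strand was searched, and 23.5% of 30240 annotated noncoding transcripts held AATAAA in their last 50 bases. The ends printed are annotated ones, and a signal in them does not show that the RNA, *Malat1* included, was polyadenylated there. Where the *Neat1* and *Malat1* RNAs in these libraries ended, and how fully they were captured, was not tested.

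The neuronal nuclear RNA *Miat* is known for repeats of TACTAAC, the letters of the branch point that splicing factors bind. The 9163-base transcript held 6 of them. The window of 200 bases with the most is printed with the repeats in capitals, from chr5:112217319-112217518 on the minus strand, since these repeats are what the RNA is known for.
Miat-205: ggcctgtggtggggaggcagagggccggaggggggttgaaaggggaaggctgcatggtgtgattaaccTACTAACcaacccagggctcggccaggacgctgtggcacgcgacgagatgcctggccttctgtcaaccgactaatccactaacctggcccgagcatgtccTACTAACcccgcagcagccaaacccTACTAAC
Of 148739 windows of this length over annotated noncoding transcripts, 0.48% held at least 1 TACTAAC on the transcript strand. At least 3, as printed, were held by 1 window (0.00067%). Those windows were laid end to end, whereas the printed one was picked as the richest of its transcript, so the shares are not matched to it.

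Gene counts per library ranged from 16.6 M to 32.9 M. Vehicle libraries 1 and 3 stood apart in neuronal RNA, with scores of a neuron marker list of 3.36 and 5.96 on the log2 scale against −2.88 to 0.17 in the other 6. The summed level of that list ran from 24.3 to 6213 CPM (counts scaled to library totals and TMM factors) in the vehicle libraries and from 17.7 to 96.9 CPM in the HPβCD libraries. In bulk tissue, fewer cells of a type and less RNA per cell cannot be told apart. The share of alignments outside any gene was 5.17% to 6.32% in the vehicle libraries and 3.29% to 4.88% in the HPβCD libraries, which did not overlap.

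*AI504432* (ENSMUSG00000056145) lies at chr3:107039504-107054347 on the plus strand of GRCm38 and is annotated as a lincRNA with 1 transcript of 5569 bases that overlaps no other gene. No established function is used here. Its level was 26.6, 24.9, 26.2 and 22.8 CPM in vehicle libraries 1 to 4, from 425 to 869 reads. It was 8.08, 6.18, 7.23 and 10.03 CPM in HPβCD libraries 1 to 4, from 101 to 181 reads. The groups did not overlap, and 12.8 CPM separated the lowest vehicle from the highest HPβCD library. The mean was 25.1 CPM ± 1.69 (SD, n = 4) with vehicle and 7.88 CPM ± 1.63 (SD, n = 4) with HPβCD, a log2 fold change of −1.67 (SE 0.18). These values chose the gene and are given as a description without a test.

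**Figure D1:**
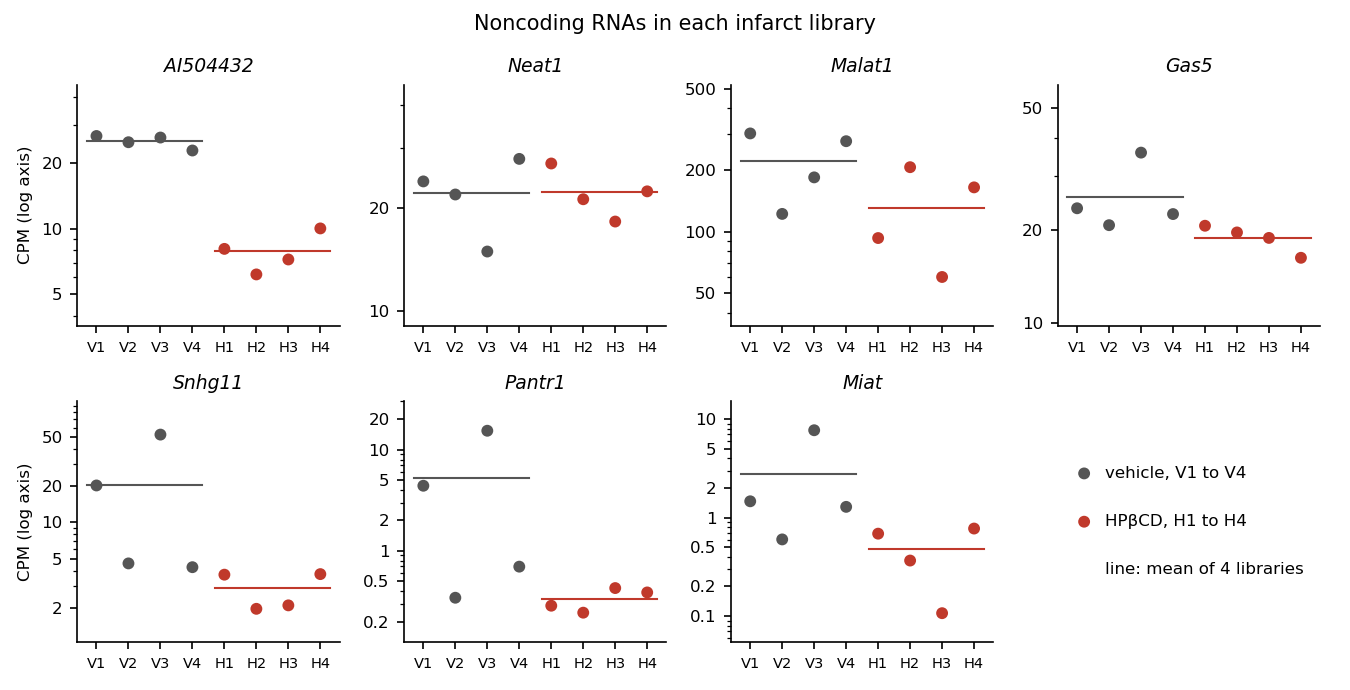
Level of the 7 noncoding RNAs with a row in each library, in CPM on log axes that differ between panels, with vehicle libraries (V1 to V4) in grey, HPβCD libraries (H1 to H4) in red and lines at the means of 4. *AI504432* lies between 22.8 and 26.6 CPM in vehicle and between 6.18 and 10.03 CPM in HPβCD, while *Snhg11* and *Pantr1* are high in V1 and V3 and *Miat* in V3.

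Within the vehicle group *AI504432* varied by a factor of 1.17 between the lowest and the highest library, a tightness that was part of the choice of the gene. Over the same 4 libraries the factor was 1.72 for *Gas5*, 1.87 for *Neat1*, 2.47 for *Malat1*, 12.2 for *Snhg11*, 12.9 for *Miat* and 44.8 for *Pantr1*. Within the HPβCD group the factor for *AI504432* was 1.62. Vehicle libraries 1 and 3, with the highest neuron scores, held 26.6 and 26.2 CPM of *AI504432*, and vehicle library 4, with a neuron score of −1.84, held 22.8 CPM. With vehicle libraries 1 and 3 left out, the log2 fold change of *AI504432* was −1.58 (SE 0.20), and over all 15 alternative settings and the main one it ran from −1.80 to −1.57.

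**Figure D2:**
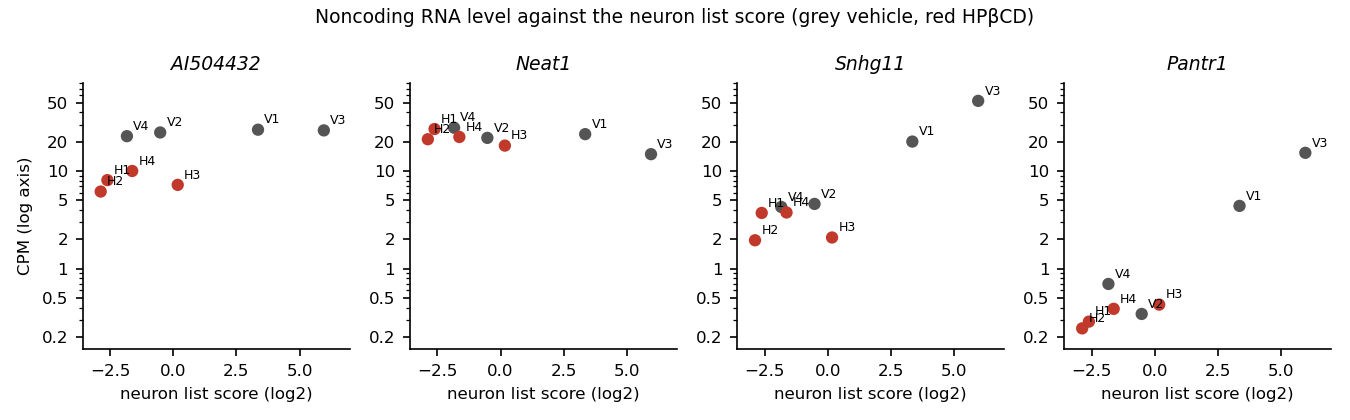
Level in CPM on a log axis against the neuron list score (mean log2 CPM of 7 neuronal marker genes, each centred on its mean) in the 8 libraries, grey for vehicle and red for HPβCD. *AI504432* stays near one level in the vehicle libraries across scores of −1.84 to 5.96, while *Snhg11* and *Pantr1* are highest at the 2 highest scores and *Neat1* is lowest, 14.9 CPM, in V3.

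The genes on either side of *AI504432* encode voltage-gated potassium channels. *Kcna3*, a channel of lymphocytes and microglia, ends 1433 bases before *AI504432* on the same strand, and *Kcna2*, a channel of axons, lies 46798 bases beyond it. *Kcna3* was at 1.86, 2.15, 2.78 and 1.66 CPM in vehicle libraries 1 to 4 and at 0.86, 1.04, 0.75 and 0.94 CPM in HPβCD libraries 1 to 4. Its groups did not overlap either, as for 16.8% of all tested genes. Its log2 fold change of −1.23 (SE 0.26) missed the threshold by edgeR (adjusted p = 0.0518). The ratio of *AI504432* to *Kcna3* was 9.41 to 14.3 in vehicle and 5.94 to 10.7 in HPβCD libraries. With the group means removed, the levels of both genes had a Pearson r of 0.10 and a Spearman rho of 0.24 over 8 libraries, given without a test because the spread of *AI504432* within the groups was part of its choice.

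*Kcna2* behaved otherwise, at 113 and 354 CPM in vehicle libraries 1 and 3, 19.2 and 25.5 CPM in vehicle libraries 2 and 4, and 5.96 to 11.1 CPM with HPβCD. Its log2 fold change of −3.95 (SE 0.98) missed the threshold too (edgeR, adjusted p = 0.07). Vehicle libraries 1 and 3 set the mean of *Kcna2* but not that of *Kcna3* or *AI504432*.

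**Figure D3:**
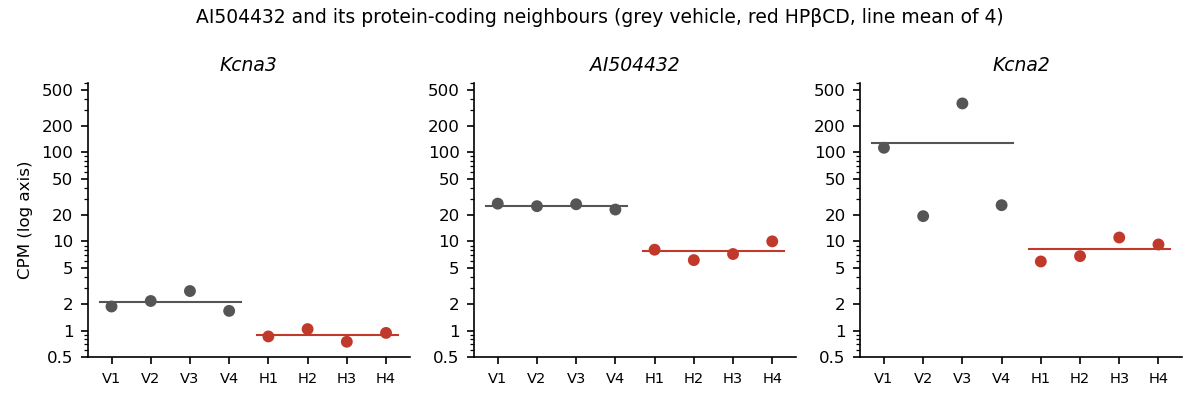
*Kcna3*, *AI504432* and *Kcna2* in each library, in CPM on a shared log axis, grey for vehicle, red for HPβCD, lines at the means of 4. *Kcna2* reaches 354 CPM in V3, whereas *Kcna3* stays between 0.75 and 2.78 CPM throughout.

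The genes most like *AI504432* were sought among the 10959 tested genes whose mean reached 5 CPM. Over all 8 libraries they were *Cep68*, a centrosome linker protein (Pearson r = 0.98), *Tada2b*, an adaptor of histone acetyltransferase complexes (0.98), and *Hook1*, which ties cargo to microtubule motors (0.97). These coefficients hold the difference between the groups that chose *AI504432*, and no test was made. Of the 3, *Hook1* passed the threshold, with 11.7 to 20.9 CPM in vehicle and 2.57 to 5.15 CPM in HPβCD libraries and a log2 fold change of −1.96 (SE 0.28; adjusted p = 0.0389 by edgeR). *Cep68* was at 14.97 to 17.3 CPM in vehicle and 9.80 to 11.7 CPM in HPβCD libraries, a difference that missed the threshold (−0.56 on the log2 scale, SE 0.14; adjusted p = 0.0647 by edgeR).

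Once the group means were removed, the most alike genes were others, namely *Eml6*, a microtubule-associated protein (r = 0.94), *Gmcl1* (0.94) and *Emc2*, a subunit of the endoplasmic reticulum membrane complex (0.93). Their log2 fold changes were 0.06 (SE 0.14), −0.19 (SE 0.14) and −0.11 (SE 0.12), none of which passed the threshold by edgeR.

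Among the RNAs of nuclear bodies, *Neat1* (ENSMUSG00000092274, chr19:5824708-5845478, minus strand) was at 23.9, 21.9, 14.9 and 27.9 CPM in vehicle libraries 1 to 4. It was at 27.0, 21.2, 18.3 and 22.4 CPM in HPβCD libraries 1 to 4. The groups overlapped, with the lowest value in vehicle library 3 and the highest in vehicle library 4. The log2 fold change was 0.0038 with an SE of 0.21 and a 95% interval of −0.48 to 0.48 (adjusted p = 0.992 by edgeR), and its sign turned in 5 of 15 alternative settings, among them TMM left out (−0.09). A difference of the size described for *AI504432* lay outside this interval. These reads cannot be split between the short and the long transcript.

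*Malat1* (ENSMUSG00000092341, chr19:5795690-5802672, minus strand) was at 302, 122, 184 and 277 CPM in vehicle libraries 1 to 4 and at 93.1, 207, 60.0 and 165 CPM in HPβCD libraries 1 to 4. The groups overlapped, and each spread over a factor of 2.47 or more. The log2 fold change of −0.76 (SE 0.42) did not pass the threshold (edgeR, adjusted p = 0.284), and its 95% interval ran from −1.72 to 0.21. Of the libraries rich in neuronal RNA, vehicle library 1 held the highest *Malat1* level and vehicle library 3 the second lowest of its group.

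The genes that resembled *Neat1* most were *Elk4*, an ETS transcription factor (r = 0.95), *Sgms1*, a sphingomyelin synthase (0.95), and *Katnbl1* (0.94). Those that resembled *Malat1* were *Ogt*, the transferase of O-linked N-acetylglucosamine (0.96), *Atp5e*, a subunit of ATP synthase (0.95), and *Alyref*, an mRNA export factor (0.95). All 6 had adjusted p-values above the threshold, from 0.171 for *Ogt* to 0.949 for *Elk4* by edgeR.

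Proteins of the same bodies were counted from lists. Of 11 paraspeckle proteins, 6 were higher and 5 lower with HPβCD and none was called, with a median log2 fold change of 0.03 against −0.05 over all tested genes. An unadjusted edgeR p under 0.05 was seen for 2 of them, against 27.8% of all tested genes, of which 1.95% were called. The best expressed were *Hnrnpk*, at 403 to 577 CPM in vehicle and 504 to 524 CPM in HPβCD libraries, and *Nono*, at 156 to 167 CPM and 160 to 222 CPM. Of 12 nuclear speckle proteins, 6 were higher and 6 lower, none was called, the median was −0.02, and 0 had an unadjusted edgeR p under 0.05. Their best expressed members were *Son*, a scaffold of the speckle, at 251 to 413 CPM in vehicle and 309 to 403 CPM in HPβCD libraries, and *Srrm2*, at 230 to 269 CPM and 245 to 315 CPM.

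Of the hosts of small nucleolar RNAs, *Gas5* (ENSMUSG00000053332, chr1:161034422-161038539, plus strand) is also known for accumulating when cells stop growing. It is known, like ribosomal protein messages, for a start rich in pyrimidines. The first 30 bases of 1 of its 25 annotated transcripts, from chr1:161035163-161035192, are shown with a run of 6 in capitals. The run begins at base 3 and not at the first base, so it does not by itself show such a start. Where the *Gas5* RNA of these libraries started was not tested.
Gas5-224: agCCTTTCggagctgtgcggcattctgagc
A run of C or T of at least this length stood within the first 15 bases of 12.8% of 58797 protein-coding transcripts and of 30.8% of 107 transcripts of the ribosomal protein genes listed. *Gas5* was at 23.6, 20.8, 35.8 and 22.6 CPM in vehicle libraries 1 to 4 and at 20.7, 19.7, 18.9 and 16.3 CPM in HPβCD libraries 1 to 4. The groups did not overlap, but the gap was 0.09 CPM and vehicle library 3 lay well above the rest. The log2 fold change of −0.44 (SE 0.20) did not pass the threshold (edgeR, adjusted p = 0.18), and without vehicle library 3 it was −0.24 (SE 0.14). Annotated small nucleolar RNAs cover 17.8% of the *Gas5* exons, and reads that touch both can be left uncounted.

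*Snhg11* (ENSMUSG00000044349, chr2:158375638-158386145, plus strand), a host gene expressed in brain and typed as protein-coding in this annotation, was at 20.1, 4.61, 52.5 and 4.29 CPM in vehicle libraries 1 to 4. It was at 3.73, 1.96, 2.09 and 3.77 CPM in HPβCD libraries 1 to 4. The groups did not overlap, by a gap of 0.53 CPM, and the 2 high values were those of the libraries rich in neuronal RNA. The log2 fold change of −2.81 (SE 0.86) did not pass the threshold by edgeR (adjusted p = 0.0947). Without vehicle libraries 1 and 3 it was −0.61 (SE 0.33), and without vehicle library 3 alone −1.73 (SE 0.60). The genes most like it were *Kcnma1*, a large-conductance potassium channel (r = 0.997), *Slc4a3*, an anion exchanger (0.99), and *Rprd1a* (0.99).

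Of 16 other host genes of small nucleolar RNAs listed, 8 were tested, 7 were lower and 1 was higher with HPβCD, and none was called. Their median log2 fold change was −0.56, and 5 of 8 had an unadjusted edgeR p under 0.05, against 27.8% of all tested genes. *Zfas1* was at 12.3 to 15.1 CPM in vehicle and 6.30 to 10.7 CPM in HPβCD libraries, without overlap (−0.80 on the log2 scale, SE 0.20; adjusted p = 0.0645 by edgeR). *Snhg18* was the one that lay higher, at 16.5 to 28.6 CPM and 28.4 to 50.1 CPM (0.70 on the log2 scale, SE 0.24; adjusted p = 0.109 by edgeR). The 40 ribosomal protein genes listed had a median of −0.20, with 30 lower and 10 higher and none called. For 8 of them the unadjusted edgeR p was under 0.05. *Rps2* was at 286 to 492 CPM in vehicle and 348 to 782 CPM in HPβCD libraries, and *Rplp0* at 372.6 to 500.0 CPM and 341 to 491 CPM.

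The RNAs of neurons and progenitors were the most uneven. *Pantr1* (ENSMUSG00000060424, chr1:42590782-42694842, minus strand), which is transcribed next to the neural transcription factor gene *Pou3f3*, was at 4.40, 0.34, 15.4 and 0.70 CPM in vehicle libraries 1 to 4. It was at 0.29, 0.24, 0.43 and 0.39 CPM in HPβCD libraries 1 to 4. The groups overlapped, since vehicle library 2 lay below 2 of the HPβCD libraries. Only vehicle libraries 1 and 3 exceeded 1 CPM. Fitted without the low count filter, *Pantr1* had a log2 fold change of −3.86 and an SE of 1.25 (adjusted p = 0.188, edgeR).

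*Pou3f3*, 925 bases away on the opposite strand, was at 84.3, 20.5, 111 and 34.6 CPM in vehicle and 4.82 to 16.6 CPM in HPβCD libraries, without overlap. Its log2 fold change of −2.62 (SE 0.64) missed the threshold (edgeR, adjusted p = 0.0686). The order of the vehicle libraries was the same for *Pou3f3* as for *Pantr1* at the top, library 3 and then library 1, and with group means removed r was 0.84 (exact permutation within groups, two-sided, p = 0.0122, adjusted p = 0.125) and rho 0.90 (exact permutation p = 0.0208, adjusted p = 0.125). Without the 2 farthest libraries r was 0.70. *Pantr1* resembled most *Pde8b*, a phosphodiesterase (r = 0.998), *Cend1*, a neuronal differentiation protein (0.997), and *Gabbr1*, a GABA-B receptor subunit (0.99).

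*Miat* (ENSMUSG00000097767, chr5:112213228-112229395, minus strand), the RNA of the repeats printed above, was at 1.47, 0.60, 7.73 and 1.29 CPM in vehicle libraries 1 to 4 and at 0.69, 0.37, 0.11 and 0.78 CPM in HPβCD libraries 1 to 4. The groups overlapped, and in HPβCD library 3 there were 2 reads. The log2 fold change of −2.48 (SE 0.90) did not pass the threshold by edgeR (adjusted p = 0.121) and was −1.17 (SE 0.59) without vehicle library 3. An antisense gene, *Gm26953*, covers 24.3% of the *Miat* exons. It was listed at 0 in all libraries, and whether the counting used strand was not stated. *Gid4* (r = 0.99), *Rnf11* (0.99) and *Lurap1* (0.98) resembled *Miat* most.

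Beside these, 12 of 22 listed neural noncoding RNAs were tested. Of these, 10 were lower and 2 higher with HPβCD, none was called, 9 had an unadjusted edgeR p under 0.05 against 27.8% of all tested genes, and the median log2 fold change was −2.60. Vehicle libraries 1 and 3 carried much of this. *Rian*, named after its values were seen, was at 66.9, 2.52, 107 and 2.36 CPM in vehicle libraries 1 to 4 and at 0.73 to 2.62 CPM in HPβCD libraries. Without vehicle libraries 1 and 3 the median was −0.86, with 9 lower, 3 higher, none called and 3 with an unadjusted edgeR p under 0.05. In that same setting, of all 14736 genes 195 were called and 3175 had an unadjusted edgeR p under 0.05, with a median of 0.015. The part of neuronal RNA in these values was not tested. The best expressed were *1700020I14Rik*, at 255 to 529 CPM in vehicle and 182 to 284 CPM in HPβCD libraries, and *Gm26917*, at 149.8 to 356 CPM and 126 to 399 CPM. Though listed as neural, *Gm26917* did not follow the neuron scores, and its values do not bear out that label. It is counted among the 2 higher, with a log2 fold change of 0.01 (SE 0.43). It was highest in HPβCD libraries 2 and 1, at 399.0 and 359.1 CPM, which had the lowest neuron scores. Vehicle library 3, with the highest score, held 356 CPM. Of 24 widely expressed noncoding RNAs listed, 10 were tested, 9 of them lower, 1 higher and none called, with a median of −0.31 and 4 with an unadjusted edgeR p under 0.05. *Tug1* was at 130.0 to 204.6 CPM in vehicle and 95.0 to 214 CPM in HPβCD libraries, and *2900097C17Rik* at 45.9 to 156 CPM and 58.4 to 93.3 CPM.

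Among the neighbours of the remaining RNAs that are reported, 1 was called, against 1.95% of all tested genes. *Lbp*, the lipopolysaccharide-binding protein gene 42785 bases from *Snhg11*, was at 92.3 to 154 CPM in vehicle and 211 to 333 CPM in HPβCD libraries (1.16 on the log2 scale, SE 0.22; adjusted p = 0.0483 by edgeR). With the group means removed r between *Lbp* and *Snhg11* was −0.88 (exact permutation within groups, two-sided, p = 0.0208, adjusted p = 0.125) and rho −0.90 (exact permutation p = 0.0208, adjusted p = 0.125). On its other side *Ralgapb* had a log2 fold change of −0.01 (SE 0.14). *Frmd8*, beyond the *Neat1* and *Malat1* pair, had 0.10 (SE 0.20). *Zbtb37*, which overlaps *Gas5* on the opposite strand, had −0.13 (SE 0.25). With the group means removed r between *Zbtb37* and *Gas5* was −0.84 (exact permutation within groups, two-sided, p = 0.0469, adjusted p = 0.188). The rho was −0.86 (exact permutation p = 0.0365, adjusted p = 0.146). *Tmpo* and *Nedd1*, on either side of *Rmst*, had −0.19 (SE 0.21) and 0.15 (SE 0.20). None of these 5 passed the threshold by edgeR.

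Across the list, 0 of the 5 tested RNAs other than *AI504432* were called by edgeR at an adjusted p under 0.05, against 1.95% of all tested genes. At an unadjusted p under 0.05 there were 2 of the 5, *Snhg11* and *Miat*, against 27.8% of all tested genes. Groups did not overlap for 2 of the 5, *Snhg11* and *Gas5*, both lower with HPβCD, against 8.01% of all tested genes in that direction. DESeq2, which tested *Pantr1* as well, called 3, *Snhg11* (adjusted p = 0.00182), *Miat* (adjusted p = 0.0241) and *Pantr1* (adjusted p = 0.00116), against 17.01% of its tested genes. limma-voom with quality weights called none of them, against 22.1%, and had 1 with an unadjusted p under 0.05.

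Of 485 annotated long noncoding genes that were tested, 333 were lower and 152 higher with HPβCD, and the median log2 fold change was −0.24 against −0.05 over all tested genes. The set goes by annotated gene type, processed transcripts included. It therefore holds some rows with symbols of protein-coding genes, such as *Cct6a* at a mean of 153.8 CPM. The groups did not overlap for 68 of the 485, 14.02% against 16.8% of all tested genes, and 5 were called, 1.03% against 1.95%. Of these, 3 were called lower, as were 0.774% of all tested genes, and 1 of the 3 was *AI504432*, from whose call nothing is read since this contrast chose it. *Gm43388* was at 0.85 to 3.27 CPM in vehicle and 0.18 to 0.55 CPM in HPβCD libraries (−2.93 on the log2 scale, SE 0.55; adjusted p = 0.0483 by edgeR). *Celrr*, whose mean of 0.81 CPM was too low for the naming rule and which was named after its values were seen, was at 0.74 to 2.20 CPM and 0.06 to 0.27 CPM. The 2 called higher were *H19*, an imprinted RNA of growing tissue, at 5.26 to 21.6 CPM in vehicle and 42.8 to 83.2 CPM in HPβCD libraries (log2 fold change 2.20, SE 0.42), and *Gm38901*, at 0.36 to 0.68 CPM and 1.33 to 3.42 CPM (1.90, SE 0.38), each with an adjusted p of 0.0483 by edgeR. The count of 5 was 0 when vehicle library 1 or 4 or HPβCD library 1, 2 or 3 was left out, 11 without vehicle library 2 and 10 without vehicle library 3. No gene of any kind, *Hook1* and *Lbp* included, was called by edgeR without vehicle library 1 or 4 or HPβCD library 2 or 3, where 2922 to 4216 genes had an unadjusted p under 0.05.

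**Figure D4:**
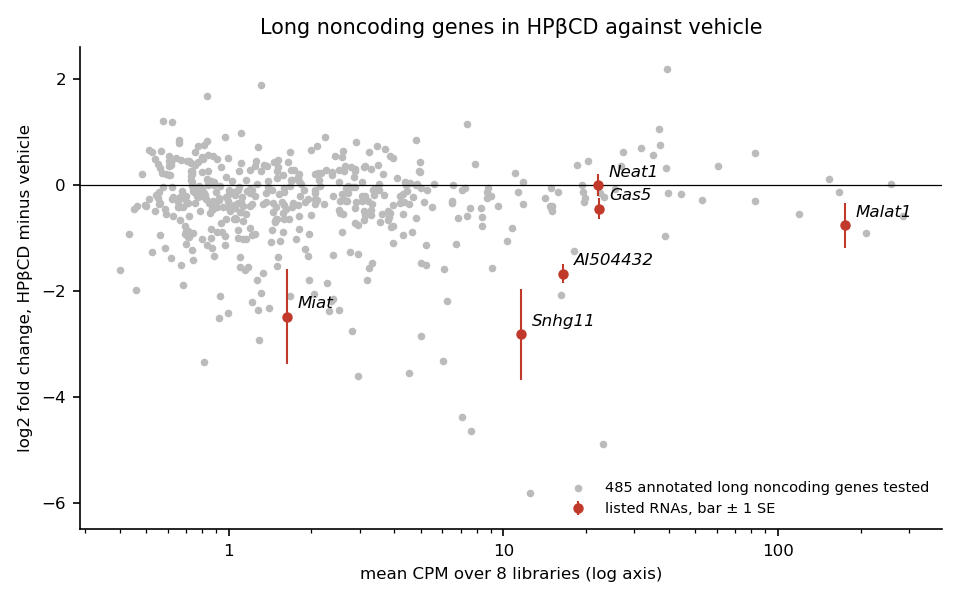
Log2 fold change (HPβCD minus vehicle) against mean CPM over 8 libraries on a log axis, for 485 annotated long noncoding genes (grey) and the 6 tested RNAs of the list (red, bars ± 1 SE from edgeR). The bar of *AI504432* is short, SE 0.18, and those of *Snhg11* and *Miat* are long, SE 0.86 and 0.90.

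The log2 CPM of each RNA was set against scores of 15 cell marker lists over the 8 libraries, 105 pairs in all. The neuron, astrocyte and oligodendrocyte lists were lower with HPβCD for every tested gene, 7 of 7 in each, and 1 of these genes, the astrocyte receptor *Fgfr3*, was called, against 1.95% of all tested genes. Without vehicle libraries 1 and 3 the neuron list had 4 genes higher and 3 lower. The fibroblast list was higher for 5 of 5, of which *Col1a1* and *Col1a2* were called, and the foamy macrophage list, of lipid-laden cells, for 5 of 6, with *Gpnmb* called. The B lymphocyte and plasma cell lists were lower for 6 of 6 in each, with 3 and 2 called. Microglia had 2 genes higher and 4 lower, with *Siglech* called lower, and oligodendrocyte precursors had 7 of 7 lower with none called. By Pearson r, 5 of the 90 pairs that did not involve *AI504432* passed a p of 0.05 adjusted over the 105 and 20 an unadjusted one, by exact permutation, and 1 passed by Spearman rho. The pairs of *AI504432* carry no test.

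*Snhg11* ran against the fibroblast list, with r = −0.96 (exact permutation test, two-sided, p = 0.000124, adjusted p = 0.013) and rho = −0.98 (exact permutation p = 0.000397, adjusted p = 0.0417, n = 8). *Gas5* (r = −0.92, rho = −0.83, exact permutation p = 0.000769 and 0.0154, adjusted 0.0269 and 0.0807), *Miat* (r = −0.90, rho = −0.90, exact permutation p = 0.00141 and 0.00456, adjusted 0.0304 and 0.0684) and *Pantr1* (r = −0.96, rho = −0.83, exact permutation p = 0.00149 and 0.0154, adjusted 0.0304 and 0.0807) did so too. *Pantr1* also followed the astrocyte list, with r = 0.86 (exact permutation p = 0.000248, adjusted p = 0.013) and rho = 0.90 (exact permutation p = 0.00456, adjusted p = 0.0684). When the 2 libraries with scores farthest from the median, vehicle 1 and 3, were left out, the 4 fibroblast coefficients were −0.63 to −0.70, so these relations rest in part on those libraries. For the astrocyte list the coefficient of *Pantr1* was 0.86 without its 2 farthest libraries, HPβCD 1 and vehicle 3.

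The neuron list itself gave r = 0.95 with *Pantr1* (exact permutation p = 0.00469, adjusted p = 0.0644; rho = 0.83, exact permutation p = 0.0154, adjusted p = 0.0807) and r = 0.91 with *Snhg11* (exact permutation p = 0.00848, adjusted p = 0.0644; rho = 0.74, exact permutation p = 0.0458, adjusted p = 0.166). Without vehicle libraries 1 and 3 these coefficients were 0.35 and 0.02, so both rest on those libraries. *Neat1* pointed the other way, with r = −0.66 (exact permutation p = 0.075, adjusted p = 0.219; rho = −0.45, exact permutation p = 0.267, adjusted p = 0.426). *Malat1* had r = 0.21 with the neuron list (exact permutation p = 0.619, adjusted p = 0.747; rho = 0.05, exact permutation p = 0.935, adjusted p = 0.935), and none of its 15 pairs passed.

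**Figure D5:**
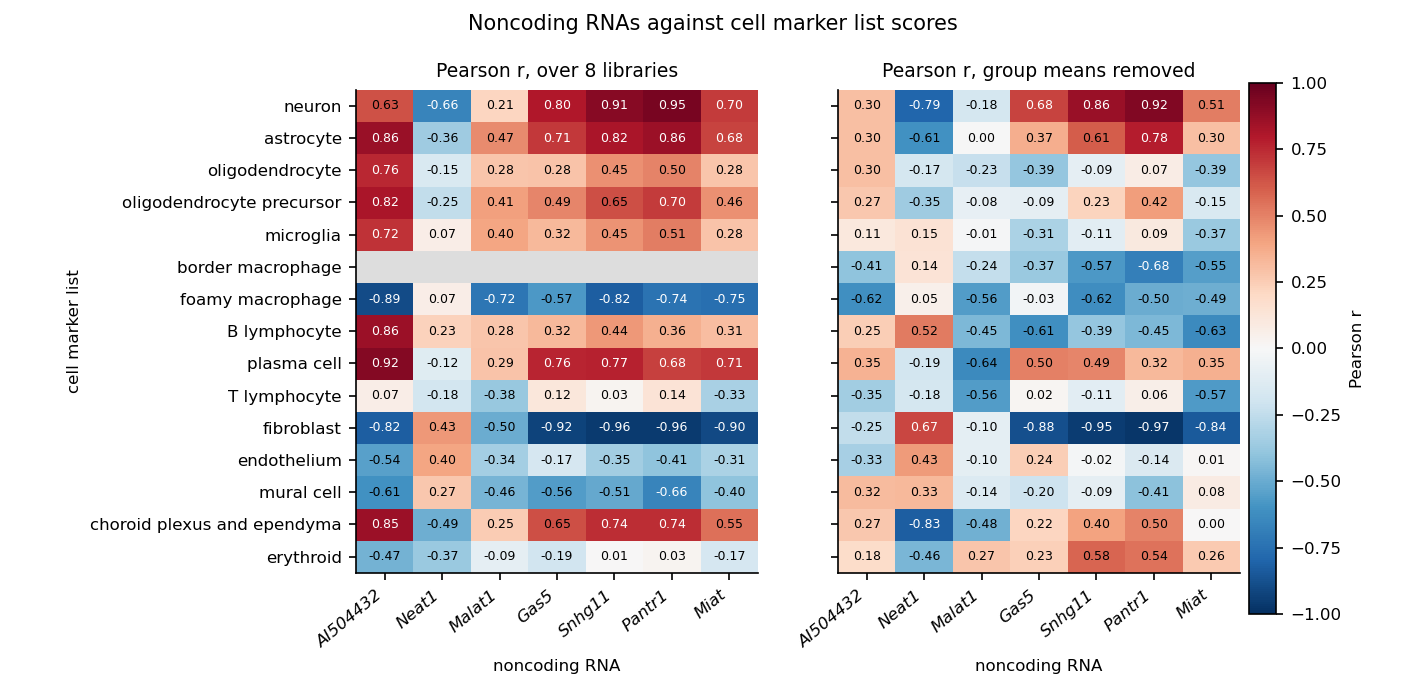
Pearson r between the log2 CPM of each noncoding RNA (columns) and the score of each cell marker list (rows), over 8 libraries on the left and with group means removed on the right, from −1 in blue to 1 in red. The border macrophage row is blank on the left because its scores formed separate clusters. The column of *AI504432* is pale on the right, with values from −0.62 to 0.35, while *Pantr1* has 0.92 with the neuron list and −0.97 with the fibroblast list. Vehicle libraries 1 and 3, the only ones with *Pantr1* above 1 CPM, are still included on the right.

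*AI504432* over all 8 libraries had r = 0.92 with the plasma cell list, −0.89 with the foamy macrophage list, 0.86 with the astrocyte and B lymphocyte lists, −0.82 with the fibroblast list and 0.63 with the neuron list. These lists differ between the groups and so does the RNA, by choice, so the coefficients carry no test. Within the groups r lay between −0.62 with the foamy macrophage list and 0.35 with the plasma cell list, and it was −0.25 with the fibroblast list. By rho the values ran from −0.74, with both the foamy macrophage and the fibroblast lists, to 0.52 with the neuron list. The spread within the groups was part of the choice as well, so these are a description.

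With group means removed, 0 of the 90 pairs of the other RNAs passed an adjusted p of 0.05 by exact permutation and 8 had an unadjusted p under 0.05. *Pantr1* held 3 of these, with the fibroblast list (r = −0.97, exact permutation p = 0.0122), the neuron list (r = 0.92, exact permutation p = 0.0347) and the astrocyte list (r = 0.78, exact permutation p = 0.0139). *Neat1* held 2, with the choroid plexus and ependyma list (r = −0.83, exact permutation p = 0.0191) and the neuron list (r = −0.79, exact permutation p = 0.0399). The other 3 were those of *Snhg11*, *Gas5* and *Miat* with the fibroblast list. Adjusted p-values of these 8 lay between 0.365 and 0.524. Removing group means leaves in vehicle libraries 1 and 3, the only ones where *Pantr1* exceeded 1 CPM. By rho, exact permutation p-values of the 8 ran from 0.0104 for *Pantr1* with the astrocyte list to 0.319 for *Gas5* with the fibroblast list, and none passed after adjustment.

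Library measures were set beside the same RNAs, in a comparison added after the data had been seen. Over 28 pairs of an RNA with the gene counts, the share of alignments outside genes, the ambiguous share or the share with several places, none passed, with or without the group means. With group means removed, 4 pairs had an unadjusted p under 0.05 by exact permutation of r. *Malat1* had r = 0.82 with the share outside genes (exact permutation p = 0.033, adjusted p = 0.324; rho = 0.69, exact permutation p = 0.149, adjusted p = 0.597) and r = −0.63 with gene counts (exact permutation p = 0.0139, adjusted p = 0.324; rho = −0.62, exact permutation p = 0.0451, adjusted p = 0.45). *Gas5* had r = 0.92 with the ambiguous share (exact permutation p = 0.0347, adjusted p = 0.324; rho = 0.74, exact permutation p = 0.0642, adjusted p = 0.45), and *Miat* had r = 0.75 with the share outside genes (exact permutation p = 0.0469, adjusted p = 0.328; rho = 0.79, exact permutation p = 0.0243, adjusted p = 0.45). For *AI504432*, without a test, r was 0.31 with the share outside genes and −0.02 with gene counts.

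Per kilobase of merged annotated exon, *Malat1* had the highest mean of the 7 RNAs, 25.2 CPM per kb over the 8 libraries, with a lowest value of 8.60. *Gas5* followed with 5.93, then *AI504432* with 2.96, *Snhg11* with 1.36, *Pantr1* with 0.62 and *Miat* with 0.18. *Neat1* had 1.07 over its 20771-base long transcript but 7.39 over the 3004-base short one, and the reads do not tell which applies, so it has no fixed place in this order. The merged exons of *Gas5* span 3760 bases of 25 annotated transcripts, of which the one printed above has 502. Over so short a transcript its value would be higher, so the place of *Gas5* below *Malat1* is not fixed either. In vehicle libraries *AI504432* (4.09 to 4.77) lay below *Gas5* (5.53 to 9.51) in every library, and the range of *Snhg11* (0.50 to 6.16) spanned that of *AI504432*. In HPβCD libraries *Snhg11* (0.23 to 0.44) lay below *AI504432* (1.11 to 1.80).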

How the data were processed

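Polyadenylated RNA of 8 infarcts was sequenced as stranded paired-end libraries, and samples were grouped by their labels. The authors used bcl2fastq 2.19, Trimmomatic 0.32, STAR 2.5.2b on GRCm38 and HTSeq, per the labels, and deposited raw counts per gene. The HTSeq version, strand option and annotation release are not given in the sources used here. The 5 summary lines, 26.6% to 36.6% of alignments per library, were left out. Symbols matched 45143 of 46078 identifiers, and coordinates are GENCODE M21.

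The 8 RNAs and all lists were chosen with earlier results of these data known. Groups were compared with edgeR 4.0.16 in R 4.3.3 (robust quasi-likelihood F test, TMM, filterByExpr, no covariate) and Benjamini-Hochberg adjustment; called means an adjusted p under 0.05. The authors used DESeq2, run here as an alternative (1.42.0), as was limma-voom (3.58.1). Intervals of fold changes use the t distribution. A list score was the mean of log2 CPM (prior count 2) of its genes, each centred on its mean. Relations used exact permutation over 40320 pairings, or 576 within groups. They were adjusted over 105 pairs for the cell lists, 12 for the neighbours and 28 for the library measures. Where the largest gap between scores exceeded 0.5 of their range, no pooled r was given. Genes were named as follows: nearest protein-coding neighbours (some are not reported here), 3 most alike genes per RNA (mean CPM of at least 5), called noncoding genes of at least 1 CPM (the 5 largest per direction), and called members of each list or its 2 highest. Scripts were tested on simulated data. No 2 libraries agreed within sampling noise, and the labels give no batch. The labels number replicates without saying that each is a separate animal, so p-values measure the spread between these samples. The counts are of reads without molecular identifiers, and the edgeR fit estimated a spread beyond counting error.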

Additional observations from a re-analysis of the deposited data

Results flagged for a closer look

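Among 44 groups of 4 values searched, the levels of the 7 noncoding RNAs and the 15 list scores in each treatment group, 2 had a library that stood apart from the other 3 by the Dixon criterion, and chance gives about 1 in 20, or 2.2. No level of a noncoding RNA was among them. The score of the border macrophage list was 0.69 (0.6895) in vehicle library 2, against −0.16 to −0.05 in the other vehicle libraries. The mural cell list score was 0.16 (0.1608) in the same library, against −0.38 to −0.30.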

How the results depend on the processing

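The lower level of *Malat1*, *Miat*, *Snhg11* and *Gas5* with HPβCD kept its direction in all 15 alternatives. That of *AI504432* did too, but the gene was chosen for this difference, so its direction is only a description. *Miat* (−2.48) and *Snhg11* (−2.79) passed the threshold with DESeq2 only. *Neat1* turned lower with limma-voom (−0.14), library totals in place of TMM (−0.086), and without vehicle libraries 1 and 3 (−0.15), and ran from −0.14 to 0.15 with 1 library left out. Called genes numbered 287 of 14736, 2899 with DESeq2, 3253 with limma-voom, 11 with library totals and 9 with the replicate block, and 0 to 629 with 1 library left out (0 without vehicle library 1 or 4 or HPβCD library 2 or 3). Called long noncoding genes numbered 5, 103 with DESeq2, 70 with limma-voom, 1 with library totals and 0 with the replicate block, and 0 to 11 with 1 library left out. Of the listed RNAs other than *AI504432*, DESeq2 called 3 in place of 0, and 0 were called with the replicate block. Relations past the threshold numbered 5 among the 90 pairs without *AI504432*, and 0 among them with group means removed. The other settings were counted only with the pairs of *AI504432*, which carry no test, so those counts are a description. Counted that way, relations numbered 6 in the main setting, 0 without vehicle libraries 1 and 3, and 0 to 12 with 1 library left out. They numbered 0 without vehicle library 1 and 0 without vehicle library 3. The cause of these shifts was not tested. Deviations from the group means correlated by −0.26, 0.24, 0.33 and 0.097 between same-numbered libraries, and vehicle library 1 correlated best with HPβCD library 3 (0.35). The numbers were not taken as pairs, and a call lost under the block is not read as a weaker effect. Depth limited *Miat* and *Pantr1* most, with 2 to 14 reads of *Miat* in HPβCD libraries. Intervals cover these 8 libraries only.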
